A study of Arabidopsis thaliana with 14 samples.

Results

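Arabidopsis methylates cytosines in its DNA to keep transposons and repeats silent, and the 10 genes described here encode the machinery that writes, guides, reads and removes that mark. They were chosen by gene ID, MET1 (AT5G49160), CMT3 (AT1G69770), DRM2 (AT5G14620), DDM1 (AT5G66750), ROS1 (AT2G36490), KYP (AT5G13960), NRPD1 (AT1G63020), NRPE1 (AT2G40030), AGO4 (AT2G27040) and RDR2 (AT4G11130), out of 33602 genes measured, and all 10 passed the filter on low values. RNA was taken from 14-day-old seedlings of the Col-0 background grown in long days, and each gene was given as RPKM, the reads of a gene per kilobase of exon, scaled to the mapped reads of its library. Of the 14 libraries, 3 each came from wild type Col, hda6-6, hda5-1 and hda9-1, and 1 each from fve-4 and fld-6. The study set out to compare hda6-6, fve-4 and fld-6 with Col, and hda5-1 and hda9-1 seedlings were sequenced in the same series.

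All mutants were labelled as homozygous, and the labels name no further mutation or treatment in any group. The hda6-6 allele, also called axe1-5, is a point mutation at a splice site of HDA6, which encodes a histone deacetylase. The fve-4 allele is a point mutation that gives an early stop in FVE, a WD40-repeat protein, and fld-6 is an insertion line with a T-DNA in an exon of FLD, a relative of the human histone demethylase LSD1. The hda5-1 and hda9-1 lines are mutants of the deacetylase genes HDA5 and HDA9. Each genotype is 1 line, and whole seedlings were used, so fewer cells of a type and less RNA per cell cannot be told apart.

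Plant DNA methylation falls into 3 sequence contexts with partly separate enzymes. MET1 copies methylation of CG sites after replication, CMT3 methylates CHG sites on chromatin marked by histone H3 lysine 9 methylation, and KYP is a methyltransferase that lays down that histone mark. DRM2 methylates all contexts under the guidance of small RNAs, in the pathway called RNA-directed DNA methylation (RdDM): NRPD1 is the largest subunit of RNA polymerase IV, RDR2 turns its transcripts into double strands, AGO4 binds the small RNAs, and NRPE1 is the largest subunit of RNA polymerase V, whose transcripts AGO4 meets at the target. DDM1 is a chromatin remodeler that lets the methyltransferases reach compact chromatin, and ROS1 is a DNA glycosylase that removes methylated cytosine. HDA6 is known as a partner of MET1 in silencing transposons and ribosomal RNA genes, and ROS1 transcription is known to depend on methylation of its own promoter.

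The stretches of 250 bases upstream of the annotated starts of ROS1, DRM2 and KYP, read from the RefSeq genome TAIR10.1, are shown because these were the members whose transcript levels differed from Col by the test. Each is written 5′ to 3′ in the direction of the gene, and CG sites, the targets of MET1, are in capitals.
ROS1, chr2:15314808-15315057, minus strand: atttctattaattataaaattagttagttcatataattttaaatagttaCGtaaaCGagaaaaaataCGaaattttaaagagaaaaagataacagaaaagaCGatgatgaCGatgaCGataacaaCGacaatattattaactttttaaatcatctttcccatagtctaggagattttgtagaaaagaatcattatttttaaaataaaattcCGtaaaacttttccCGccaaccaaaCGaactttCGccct
DRM2, chr5:4718705-4718954, minus strand: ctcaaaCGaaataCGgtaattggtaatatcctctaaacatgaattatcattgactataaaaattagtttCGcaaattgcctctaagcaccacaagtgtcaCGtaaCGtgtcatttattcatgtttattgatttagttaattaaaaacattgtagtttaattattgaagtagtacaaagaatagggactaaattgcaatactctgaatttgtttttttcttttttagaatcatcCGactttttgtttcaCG
KYP, chr5:4501112-4501361, plus strand: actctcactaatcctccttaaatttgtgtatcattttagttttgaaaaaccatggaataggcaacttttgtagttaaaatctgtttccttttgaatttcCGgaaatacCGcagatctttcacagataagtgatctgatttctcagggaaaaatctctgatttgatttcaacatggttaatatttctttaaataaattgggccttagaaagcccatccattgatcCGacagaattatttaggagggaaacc
The ROS1 stretch held 11 CG sites, more than 90.8% of the 27443 protein-coding genes examined, while the DRM2 stretch held 7 and the KYP stretch 3, against a median of 5. Among the other members, the number ranged from 1 in NRPE1 to 10 in RDR2. The E2F-type motifs TTTCCCGC, TTTCGCGC, TTTGCCGC and TTTGGCGC, known from replication genes, were searched on both strands, and of the 10 members only ROS1 held one, against 1.41% of all promoters of this length. Methylation of these stretches was not measured here.

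Depth was not given with the RPKM values and was estimated at about 17900000 to 25600000 mapped reads per library, which places about 42 to 100 reads on NRPD1, the least read member, and 316 to 936 on ROS1. HDA6, HDA5, HDA9 and FVE were lower than in Col in the mutants named for them, with log2 fold changes of -1.46, -1.59, -2.94 and -6.05, while FLD was at RPKM 3.52 in fld-6 and 3.68 in Col, so its level does not mark the fld-6 library. Long genes deviated together in some libraries: relative to genes with under 1500 bases of exon, genes of 4000 bases or more ranged from 0.38 log2 units lower in hda9-1 replicate 1 to 0.52 higher in hda9-1 replicate 3. The summed markers of leaf lay at RPKM 36210 to 50839 per library and those of seed at 2.36 or below. The markers of shoot meristem summed to 6.12 to 6.53 in hda9-1 and 1.91 to 2.15 in hda6-6, against 2.87 to 3.77 in Col, and those of root to 22.02 to 29.6 in hda9-1 and 22.8 to 27.3 in hda6-6, against 8.08 to 20.2 in Col and 13.5 to 42.5 in hda5-1. The markers of flower summed to 5.08 to 6.62 in Col, 2.27 to 3.02 in hda5-1, 3.39 to 4.60 in hda6-6 and 7.75 to 8.27 in hda9-1. Single markers of flower did not move together: in hda6-6, the log2 fold change was -1.36 for SEP3, 0.75 for PI, -0.04 for AP1 and -0.06 for AP3. AG was below the filter. Of the leaf markers, RCA changed by -0.55 in hda6-6, RBCS1A by 0.04 and CAB1 by 0.02. All root markers were higher in hda6-6, RHD2 by 0.88, COBL9 by 0.91, EXPA7 by 1.17, CASP1 by 0.81 and WER by 0.34. In hda9-1 they were higher by 0.75, 1.07, 1.07, 0.89 and 0.60, in the same order. The part of these differences in the results below was not tested.

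In Col, ROS1 and AGO4 had the highest levels per length and NRPD1 the lowest. ROS1 was at 6.03 ± 0.967 and AGO4 at 5.75 ± 0.663 (SD, n = 3), and their ranges overlapped. DRM2 at 3.95 ± 0.262, CMT3 at 3.81 ± 0.231 and MET1 at 3.73 ± 0.339 followed and did not separate from each other. DDM1 at 2.33 ± 0.447, RDR2 at 1.87 ± 0.286 and KYP at 1.75 ± 0.101 came next. The range of RDR2 overlapped those of DDM1 and KYP, while DDM1 lay above KYP in every library. NRPE1 at 1.28 ± 0.305 lay below KYP but overlapped RDR2, and NRPD1 at 0.458 ± 0.0671 lay below all others. In hda6-6 and fve-4 this order was rearranged, with DRM2 as the highest of the 10, at 6.04 ± 0.870 (SD, n = 3) and 7.63, and ROS1 below AGO4, CMT3 and MET1, at 3.61 ± 0.470 (SD, n = 3) and 3.06. The ranges of ROS1 and MET1 overlapped in hda6-6, at 3.06 to 3.92 and 3.39 to 4.13. In fld-6, DRM2 at 6.28 was also the highest, next to ROS1 at 6.23. In hda5-1 and hda9-1, ROS1 remained the first by its mean and DRM2 was the second, with overlapping ranges.

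**Figure D1:**
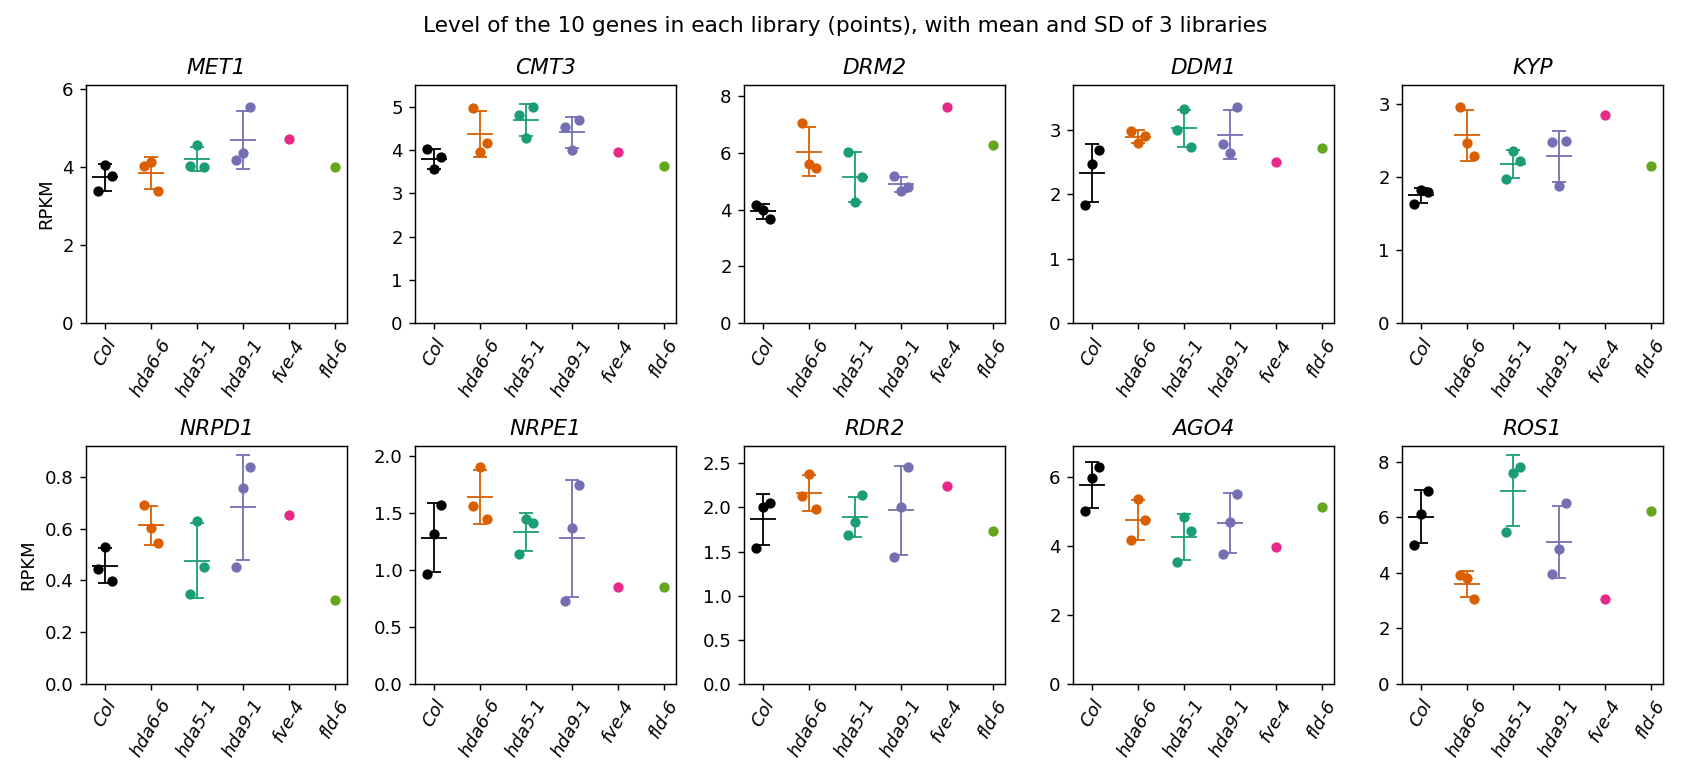
RPKM of the 10 genes (vertical axes, each starting at 0) in the 14 libraries, grouped by genotype; points are libraries and bars the mean and SD of 3 libraries, with no bar for the single fve-4 and fld-6 libraries. All DRM2 and KYP points of the mutants lie above the 3 Col points, and the ROS1 points of hda6-6 and fve-4, at 3.06 to 3.92, lie below the lowest Col point of 5.02.

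Compared with Col by limma, at a Benjamini-Hochberg adjusted p under 0.05 over all 23187 genes tested, 3 of the 10 members changed in hda6-6: DRM2 and KYP rose and ROS1 fell. The same 3 members were called, in the same directions, in fve-4, a comparison that shares its Col libraries with the first. No member was called in hda5-1, hda9-1 or fld-6. The test called 33.7% of all genes in hda6-6 (18.8% higher and 14.9% lower), 22.2% in fve-4 (15.4% higher and 6.78% lower), 26.2% in hda5-1, 24.8% in hda9-1 and 3.09% in fld-6, so 3 of 10 is near the background in hda6-6. The 3 of 10 in fve-4 rest on 1 library and are not shown to exceed the background there. No member passed a 2-fold change as well, against 12.9% of all genes in hda6-6, 7.89% in fve-4, 9.45% in hda5-1, 5.86% in hda9-1, 1.81% in fld-6 and 4.78% in hda6-6 against the mean of hda5-1 and hda9-1. The median log2 fold change of all genes was 0.19 in fve-4, against 0.02 to 0.08 in the other mutants, and 69.5% of the genes called in fve-4 and 59.2% of those in hda9-1 were higher than in Col; after scaling the libraries by median-of-ratios or by a trimmed mean, these shares were 44.8 and 45.2% in fve-4 and 46 and 46.7% in hda9-1. The median change of the 10 members was 0.27 in hda6-6, 0.18 in hda5-1, 0.25 in hda9-1 and 0.19 in fve-4, and it was -0.0025 in fld-6.

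**Figure D2:**
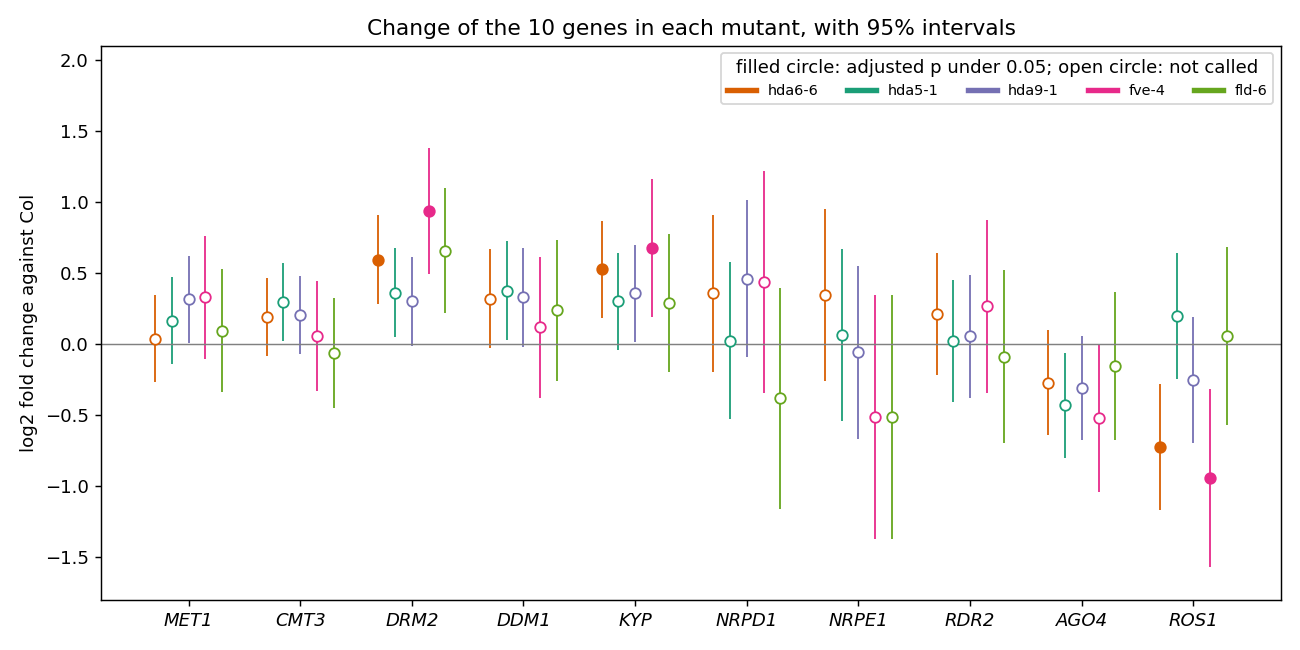
Log2 fold change against Col (vertical axis) of the 10 genes in the 5 mutants (colours), from limma on log2(RPKM + 0.1); lines are 95% intervals and filled circles are changes at an adjusted p under 0.05. The filled circles are DRM2 at 0.59 and 0.94, KYP at 0.53 and 0.68 and ROS1 at -0.72 and -0.94, in hda6-6 and fve-4.

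The groups could also be set apart by their ranges. In hda6-6, 4 members lay above every Col library (DRM2, KYP, DDM1 and NRPD1) and 1, ROS1, below, against 27.7% and 21.6% of all genes. In hda5-1, DRM2, KYP, CMT3 and DDM1 lay above and AGO4 below (24.4% and 18.9% of all genes), and in hda9-1 DRM2, KYP and MET1 lay above and none below (22.7% and 15%). The single fve-4 library was above Col for 5 members and below for 3, AGO4, NRPE1 and ROS1 (50.4% and 23.4%), and the fld-6 library above for DRM2, KYP and DDM1 and below for NRPD1 and NRPE1 (34.3% and 29%). DRM2 and KYP thus lay above the Col range in all 5 mutants, which share the 3 Col libraries, as did 6.56% of all genes, and ROS1 below it in hda6-6 and fve-4.

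DRM2, the methyltransferase at the end of the RdDM pathway (chr5:4715105-4718704, minus strand, TAIR10.1), was at RPKM 4.18, 4.003 and 3.66 in the 3 Col libraries. It was at 7.04, 5.62 and 5.46 in hda6-6, at 7.63 in fve-4 and at 6.28 in fld-6. In hda5-1 it was at 6.01, 4.26 and 5.14 and in hda9-1 at 5.20, 4.66 and 4.79. Every mutant library was thus above every Col library, although the lowest hda5-1 library exceeded the highest Col library only slightly. The log2 fold change, on the log2(RPKM + 0.1) scale used throughout, was 0.59 in hda6-6 (standard error 0.14, adjusted p = 0.00709 from limma) and 0.94 in fve-4 (standard error 0.20, adjusted p = 0.00734). It was 0.66 in fld-6 (adjusted p = 0.114), 0.36 in hda5-1 (adjusted p = 0.0860) and 0.30 in hda9-1 (adjusted p = 0.150), none of which passed. DRM2 kept its call in hda6-6 and fve-4 under every alternative that kept Col as the reference, but against the mean of hda5-1 and hda9-1 it differed by 0.26 in hda6-6 (adjusted p = 0.169) and by 0.60 in fve-4 (adjusted p = 0.0606). The rise in DRM2 is therefore not shown to be particular to either mutant.

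The 2 maintenance methyltransferase genes did not pass the test in any mutant. MET1 was at RPKM 3.38, 4.06 and 3.77 in Col and at 4.17, 4.37 and 5.55 in hda9-1, where all 3 libraries were above Col, with a log2 fold change of 0.32 (adjusted p = 0.125 from limma). In hda6-6 it was at 4.01, 4.13 and 3.39, overlapping Col, and its change of 0.04 had a 95% interval of -0.27 to 0.35. CMT3 was at 4.02, 3.56 and 3.84 in Col and at 4.81, 4.29 and 5.01 in hda5-1, without overlap, a log2 fold change of 0.30 (adjusted p = 0.107). Both genes are known to be most active in dividing cells, and the meristem marker STM rose by 0.97 in hda9-1 and fell by 0.59 in hda6-6 on the same scale, while WUS was below the filter. Of 17 other DNA replication and cell cycle genes, 0 rose and 2 fell in hda9-1 (median change -0.10, 11.8% called against 24.8% of all genes). In hda6-6, 0 rose and 3 fell (median -0.22, 17.6% called against 33.7% of all genes). The part of these in the MET1 and CMT3 values was not tested.

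KYP, the H3K9 methyltransferase that works with CMT3 (chr5:4501362-4506250, plus strand), was at RPKM 1.63, 1.82 and 1.79 in Col. It was at 2.96, 2.46 and 2.28 in hda6-6 and at 2.85 in fve-4. The other mutants lay between, at 1.97, 2.35 and 2.21 in hda5-1, at 2.48, 1.87 and 2.49 in hda9-1 and at 2.16 in fld-6. As for DRM2, no mutant library reached down into the Col range. The log2 fold change was 0.53 in hda6-6 (standard error 0.16, adjusted p = 0.0223 from limma) and 0.68 in fve-4 (standard error 0.22, adjusted p = 0.0472). The hda6-6 call was lost without Col replicate 1 (0.48, adjusted p = 0.0731) or without hda6-6 replicate 1 (0.42, adjusted p = 0.0914). Against the mean of hda5-1 and hda9-1, KYP differed by 0.20 in hda6-6 (adjusted p = 0.356) and by 0.35 in fve-4 (adjusted p = 0.299), so its rise is not shown to be particular to either mutant. The fve-4 call held in 10 of 22 alternatives that kept Col as the reference, and after median-of-ratios scaling the value was 0.49 (adjusted p = 0.119). KYP overlaps AT5G13970 on the opposite strand by 60 bases, and reads of the overlap cannot be assigned from RPKM.

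DDM1, the chromatin remodeler, was at RPKM 1.83, 2.47 and 2.69 in Col, the widest Col spread relative to its level after NRPE1. It was at 2.99, 2.79 and 2.91 in hda6-6 and at 3.01, 3.33 and 2.74 in hda5-1, above Col in every library of both. The log2 fold changes were 0.32 (adjusted p = 0.148) in hda6-6, 0.38 (adjusted p = 0.109) in hda5-1 and 0.33 (adjusted p = 0.161) in hda9-1, and none passed limma's test. In fve-4 and fld-6 it was at 2.51 and 2.73.

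Of the RdDM members other than DRM2 (NRPD1, NRPE1, RDR2 and AGO4), none passed in any mutant. NRPD1 was at RPKM 0.446, 0.530 and 0.397 in Col, at 0.694, 0.603 and 0.544 in hda6-6 and at 0.452, 0.759 and 0.838 in hda9-1, with log2 fold changes of 0.36 (adjusted p = 0.306 from limma) and 0.46 (adjusted p = 0.212). NRPE1 spread widely within genotypes, from 0.962 to 1.57 in Col and from 0.723 to 1.74 in hda9-1, and was at 0.850 in the fve-4 library and at 0.850 in the fld-6 library, below the Col range. RDR2 was at 1.54, 2.01 and 2.05 in Col and between 1.44 and 2.46 in the mutants, and its largest change was 0.27 in fve-4 (95% interval -0.34 to 0.88). The 95% intervals of the NRPD1 and NRPE1 changes reached 0.91 and 0.95 in hda6-6, so changes up to that size were not excluded.

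AGO4, which binds the small RNAs of the pathway (chr2:11536502-11542391, minus strand), was the member that was lower than Col by its mean in all 5 mutants. It was at RPKM 5.002, 5.97 and 6.27 in Col, at 3.53, 4.83 and 4.41 in hda5-1, below every Col library, and at 4.18, 5.34 and 4.73 in hda6-6 and 3.77, 4.69 and 5.50 in hda9-1, where the ranges overlapped. The fve-4 library was at 3.96 and the fld-6 library at 5.13. The log2 fold change was -0.43 in hda5-1 (adjusted p = 0.0837 from limma), -0.52 in fve-4 (adjusted p = 0.144), -0.31 in hda9-1 (adjusted p = 0.210), -0.27 in hda6-6 (adjusted p = 0.245) and -0.16 in fld-6 (adjusted p = 0.811). Replicate 1 was the lowest in 4 of 4 genotypes with 3 libraries. When the trend of each library with exon length was removed, an alternative chosen after seeing the data, AGO4 was called lower in hda5-1 (-0.50, adjusted p = 0.0172), hda9-1 (-0.44, adjusted p = 0.0341) and fve-4 (-0.62, adjusted p = 0.0426), and remained uncalled in hda6-6 (-0.27, adjusted p = 0.139).

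ROS1, the demethylase (chr2:15307907-15314807, minus strand), varied most of the 10 over the 6 genotypes, by 1.14 on the log2 scale between hda5-1 and fve-4, against a median range of 0.82 over all genes tested. It was at RPKM 5.02, 6.11 and 6.95 in Col. In hda6-6 it was at 3.92, 3.83 and 3.06 and in fve-4 at 3.06, all below the lowest Col library. In hda5-1 it was at 5.49, 7.59 and 7.81, in hda9-1 at 3.94, 4.87 and 6.53 and in fld-6 at 6.23, and each of these groups overlapped Col. The log2 fold change was -0.72 in hda6-6 (standard error 0.20, adjusted p = 0.0165 from limma) and -0.94 in fve-4 (standard error 0.29, adjusted p = 0.0356). It was -0.25 in hda9-1 (adjusted p = 0.410), 0.20 in hda5-1 (adjusted p = 0.526) and 0.06 in fld-6 (adjusted p = 0.956). The hda6-6 call was lost without Col replicate 3 (-0.61, adjusted p = 0.0674) or without hda6-6 replicate 3 (-0.61, adjusted p = 0.0647), and the fve-4 call in 4 of 22 alternatives that kept Col as the reference, among them without the filter (adjusted p = 0.0537), without Col replicate 2 (-0.93, adjusted p = 0.0674) and without Col replicate 3 (-0.83, adjusted p = 0.0849). With the length trend removed, ROS1 stayed lower in hda6-6 (-0.72, adjusted p = 0.00106) and fve-4 (-0.96, adjusted p = 0.00419) and was also called in hda9-1 (-0.42, adjusted p = 0.0329).

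ROS1 was also the member for which mutants differed from one another. It was lower in hda6-6 than in hda5-1 by a log2 difference of -0.92 (adjusted p = 0.0103 from limma), in a comparison that called 12.3% of all genes, and higher in hda5-1 than in fve-4 by 1.14 (adjusted p = 0.0188), where 18.2% were called. Against the mean of hda5-1 and hda9-1, the difference was -0.70 in hda6-6 (standard error 0.18, adjusted p = 0.0165), the 1 member called there against 18.4% of all genes, and -0.92 in fve-4 (adjusted p = 0.0494), against 10.8%. The first of these 2 calls was lost without hda6-6 replicate 3 (-0.59, adjusted p = 0.0885). Between hda6-6 and fve-4, ROS1 differed by 0.22 (95% interval -0.41 to 0.85), and between hda6-6 and hda9-1 by -0.47 (adjusted p = 0.112). Among the 10 pairs of mutants, no call was made for DRM2 or KYP, whose largest differences were -0.63 between hda9-1 and fve-4 for DRM2 (adjusted p = 0.0840) and 0.39 between fve-4 and fld-6 for KYP (adjusted p = 0.475). Over all genes, the other pairs gave 25.4% for hda6-6 and hda9-1, 20.5% for hda6-6 and fve-4, 13.8% for hda6-6 and fld-6, 20.8% for hda5-1 and hda9-1, 7.34% for hda5-1 and fld-6, 6.11% for hda9-1 and fve-4, 5.18% for hda9-1 and fld-6 and 2.28% for fve-4 and fld-6, with 1 library each.

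The genes whose 14 library values were most like those of ROS1, out of 15874 candidates with a mean RPKM of at least 2, were KAC1 (AT5G10470), a kinesin-like gene, with a Pearson r of 0.92, GT18 (AT5G62220), a glycosyltransferase gene, with 0.91, and AT5G09620 with 0.90. Those most like DRM2 were AT5G16160 with 0.97, AT3G60150 with 0.96 and AT5G41560 with 0.94. Between members, the closest were DRM2 and KYP with an r of 0.73 and NRPE1 and RDR2 with 0.72; these are descriptions over 14 libraries that share genotypes, depth and length trends.

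**Figure D3:**
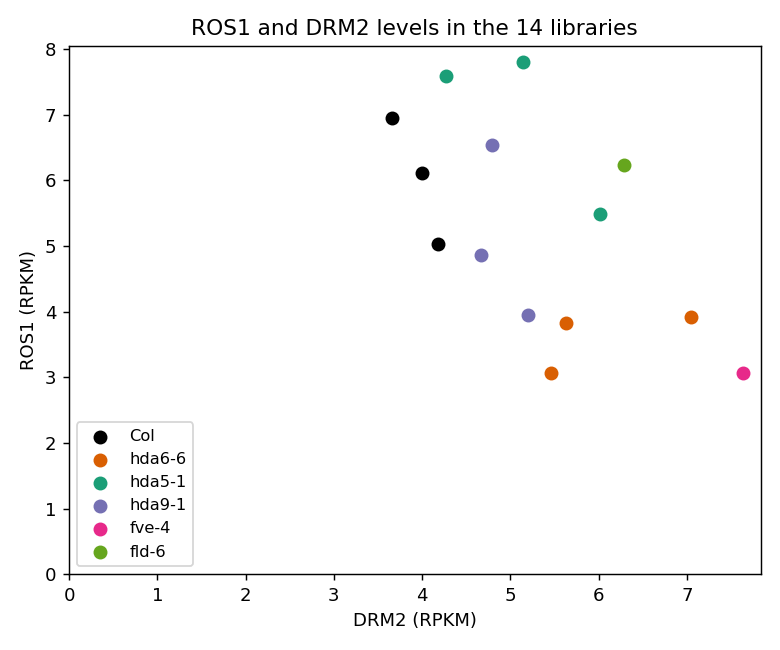
RPKM of ROS1 (vertical axis) against RPKM of DRM2 (horizontal axis) in the 14 libraries, coloured by genotype. The 3 hda6-6 libraries and the fve-4 library combine DRM2 at 5.46 or above with ROS1 at 3.92 or below, while Col lies at DRM2 of 4.18 or below. The hda9-1 replicate 1 library lies close to them, with DRM2 at 5.20 and ROS1 at 3.94. High levels of both are seen in fld-6 and in hda5-1 replicate 1, the latter with DRM2 at 6.01 and ROS1 at 5.49.

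Around the 10 members, 81 further genes of DNA methylation, demethylation, H3K9 methylation, RdDM and heterochromatin were listed, of which 74 were tested. In hda6-6, 7 rose and 9 fell, and the share called, 21.6%, was below the 33.7% over all genes. In fve-4, 8 rose and 4 fell (16.2% against 22.2%), in hda5-1 4 rose and 8 fell (16.2% against 26.2%), in hda9-1 3 rose and 7 fell (13.5% against 24.8%), and in fld-6 2 fell (2.7% against 3.09%). The counts in hda6-6, hda5-1, hda9-1 and fve-4 ranged over the alternatives from 12 to 20, 9 to 19, 5 to 12 and 9 to 15.

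Of the relatives of the members that were looked at individually, 11 were fixed to be named whatever their result. That choice was made with earlier results of these data known. None of the 11 was called. DRM1, the paralog of DRM2, had a value of 0 in every Col library and of 0.149 or below elsewhere, under the filter. CMT2, another chromomethylase, AGO6 and AGO9, the relatives of AGO4, SUVH5 and SUVH6, those of KYP, the ROS1 relatives DME, DML2 and DML3, and NRPD2 and DCL3 of the RdDM pathway were not called in any mutant. The smallest adjusted p among them was 0.0803, for AGO6 in hda5-1. Other relatives were called, among them members of the SUVH and Argonaute families named below. DMT2 (AT4G14140), a paralog of MET1 named after its values were seen, was at RPKM 0.318 to 0.336 in Col and 0.104 to 0.185 in hda5-1, a log2 fold change of -0.88 (adjusted p = 0.0207 from limma), and was higher in hda6-6 than the mean of hda5-1 and hda9-1 by 0.82 (adjusted p = 0.0201). The first of these calls was lost in 4 of 22 alternatives and the second in 3 of 21, each time without 1 of the libraries compared. DME was at RPKM 3.25 ± 0.0956 in Col and 4.71 ± 0.751 in hda6-6 (SD, n = 3), a log2 fold change of 0.51 (adjusted p = 0.221 from limma), and at 3.47 in fve-4.

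Among the other demethylation genes, 1 of 11 rose and 1 fell in hda6-6 (18.2% called, against 33.7% of all genes), and 3 rose and 1 fell in fve-4 (36.4% against 22.2%). The one that fell in both was AT1G20870, named after its values were seen, which was at RPKM 0.730 ± 0.161 in Col and 0.405 ± 0.0925 in hda6-6 (SD, n = 3) and was called lower in all mutants but fld-6. Its log2 fold change was -0.71 in hda6-6, -0.85 in hda5-1, -1.03 in hda9-1 and -1.04 in fve-4. These calls were lost in 5 of 22, 3 of 22, 0 of 22 and 9 of 21 alternatives. MBD7 (AT5G59800), a methyl-DNA binding protein that protects genes from silencing, rose most, from RPKM 2.75 ± 0.0882 in Col to 6.37 ± 0.375 in hda6-6 (SD, n = 3), a log2 fold change of 1.18 (adjusted p = 8.24e-06 from limma). It was also higher in fve-4 (0.74), in hda5-1 (0.54) and in hda6-6 against the mean of hda5-1 and hda9-1 (0.76, adjusted p = 0.000209). ROS3 (AT5G58130), an RNA-binding protein of the demethylation pathway, was at 24.9 in fve-4 against 12.97 ± 1.22 (SD, n = 3) in Col, a log2 fold change of 0.94 (adjusted p = 0.00384). MET18 (AT5G48120), an iron-sulfur cluster assembly factor needed by ROS1, rose by 0.65 in fve-4, a call lost under both scalings (highest adjusted p 0.0590). IDM1 (AT3G14980), a histone acetyltransferase that opens targets to ROS1, rose in hda9-1 (0.70, adjusted p = 0.0181), a call lost in 4 of 23 alternatives.

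Of the 13 other H3K9 methylation genes tested, 2 rose and 3 fell in hda6-6 (38.5% called, against 33.7% of all genes). IBM1 (AT3G07610), a demethylase that keeps H3K9 methylation out of gene bodies, fell from RPKM 3.23 ± 0.444 in Col to 1.73 ± 0.222 in hda6-6 (SD, n = 3), a log2 fold change of -0.87 (adjusted p = 0.00232 from limma). It was at 3.29 in hda5-1, 3.88 in hda9-1 and 5.30 in fve-4 (adjusted p = 0.0599 in fve-4), and the difference from the mean of hda5-1 and hda9-1 was -1.01 (adjusted p = 0.000711). SUVH9 (AT4G13460), which reads methylated DNA and brings in RNA polymerase V, fell in hda6-6 (-0.63), hda5-1 (-0.54), hda9-1 (-0.36) and fve-4 (-0.48), with adjusted p-values from 0.000872 to 0.0457. Its call was lost in 6 of 23 alternatives in hda9-1 and in 10 of 22 in fve-4. The related SUVH2 (AT2G33290) rose in hda9-1 (0.54) and fve-4 (0.78), and both calls were lost under either scaling. SUVR4 (AT3G04380), an H3K9 methyltransferase of transposons, rose in hda6-6 by 0.73 (adjusted p = 0.00865).

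Of the 28 other RdDM genes, 2 rose and 1 fell in hda6-6 (10.7% called, against 33.7% of all genes). In hda5-1, 2 rose and 1 fell (10.7% against 26.2%), and in fve-4 3 rose (10.7% against 22.2%). In each of hda9-1 and fld-6, 1 fell (3.57%, against 24.8% and 3.09%). CLSY1 (AT3G42670), which guides RNA polymerase IV to its targets, was at RPKM 3.22 ± 0.0751 in Col, 1.36 ± 0.0538 in hda5-1, 1.82 ± 0.184 in hda9-1 (SD, n = 3) and 1.19 in fld-6, with log2 fold changes of -1.19, -0.79 and -1.37 (adjusted p = 0.000124, 0.00288 and 0.00538 from limma). In hda6-6 it was at 2.90 ± 0.560 (SD, n = 3), above the mean of hda5-1 and hda9-1 by 0.83 (adjusted p = 0.00109). FDM2 (AT4G00380), a double-strand RNA binding factor of the pathway, rose in hda6-6 (0.72), hda5-1 (0.77) and fve-4 (0.90). CRH1 (AT4G36280, also MORC2), of the microrchidia family of silencing ATPases and named after its values were seen, rose in the same 3 mutants, from RPKM 0.221 ± 0.0943 in Col to 0.868 ± 0.157 in hda6-6 and 0.591 ± 0.199 in hda5-1 (SD, n = 3) and 0.780 in fve-4, with log2 fold changes of 1.62, 1.11 and 1.499. HEN1 (AT4G20910), which methylates small RNAs, fell in hda6-6 by 0.48 on the log2 scale, a call lost without Col replicate 1. LDL1 (AT1G62830), a relative of FLD listed with them, rose in fve-4 by 0.69 (adjusted p = 0.0167).

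Of the 14 other heterochromatin genes, 1 rose and 4 fell in hda6-6 and in hda5-1 (35.7% called, against 33.7% and 26.2% of all genes). In hda9-1, 4 fell (28.6% against 24.8%), in fve-4 1 rose and 2 fell (21.4% against 22.2%), and in fld-6 1 fell (7.14% against 3.09%). HTA12 (AT5G02560), a histone H2A gene, fell from RPKM 24.3 ± 1.97 in Col to 13.4 ± 0.696 in hda6-6 and 13.1 ± 0.874 in hda9-1 (SD, n = 3), with log2 fold changes of -0.85 and -0.89 (adjusted p = 8.85e-05 and 0.000156 from limma), and it fell less in hda5-1 (-0.55, adjusted p = 0.00261). AT1G06760, which the annotation ties to nucleosome assembly, fell in all 5 mutants, by 0.66 to 0.90 on the log2 scale, from 425 ± 24.7 in Col to 247 ± 6.20 in hda6-6 (SD, n = 3). AT2G30620, annotated likewise, fell in hda6-6 (-0.76), hda5-1 (-0.76), hda9-1 (-0.70) and fve-4 (-0.66), and was at 212 ± 17.7 in Col and 125 ± 7.98 in hda6-6 (SD, n = 3). ATXR5 (AT5G09790), a histone methyltransferase that restrains replication of heterochromatin, rose in hda6-6 (0.94) and hda5-1 (0.79, a call lost without any 1 of 5 libraries, Col replicates 2 and 3 and the hda5-1 replicates). MSI1 (AT5G58230), a chromatin assembly subunit related to FVE, rose in fve-4 by 0.59, a call lost under both scalings. VIM3 (AT5G39550), of the family that brings MET1 to DNA, rose in hda6-6 by 0.41 (adjusted p = 0.0491), a call lost in 13 of 23 alternatives.

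**Figure D4:**
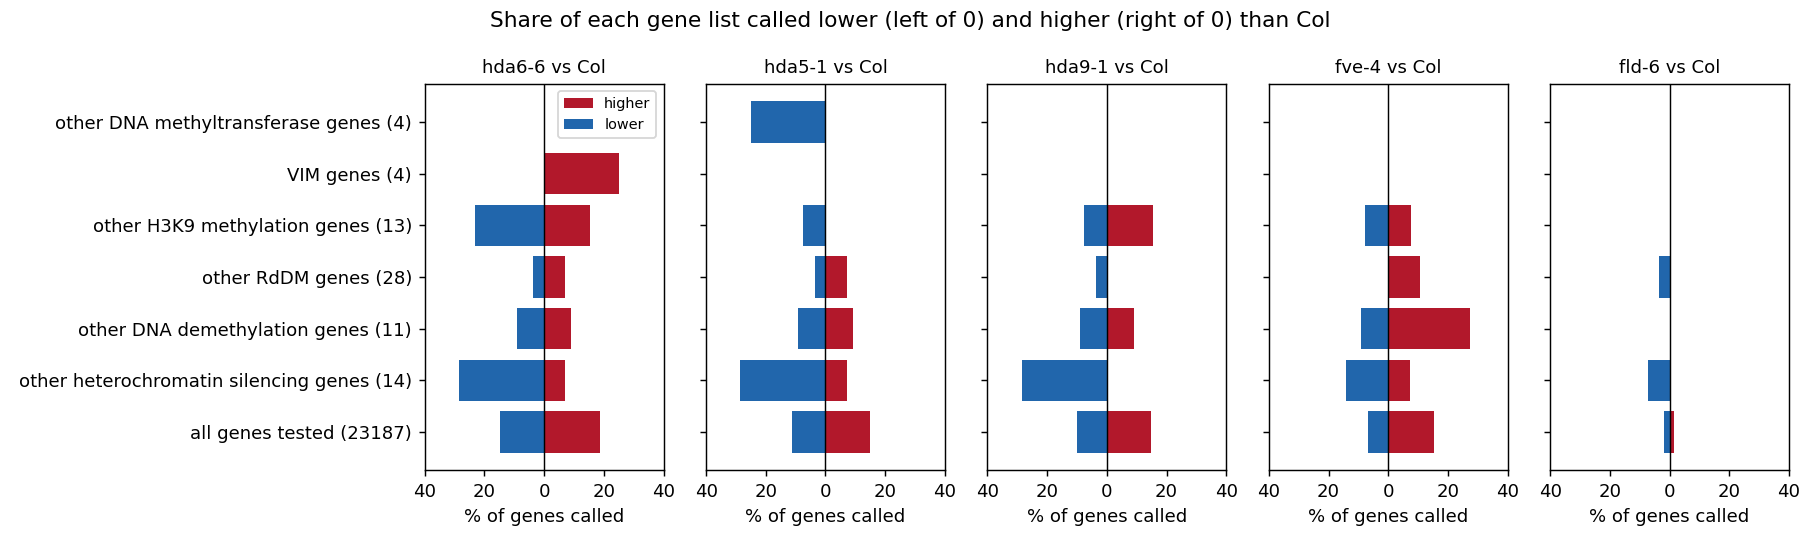
Share of the genes of each list called at an adjusted p under 0.05 (horizontal axis, percent), lower than Col to the left of 0 and higher to the right, in the 5 mutants; the number of genes tested is in brackets and the last bar is all 23187 genes. In hda6-6 the bar of the heterochromatin list lies mostly to the left, with 4 of 14 genes lower and 1 higher, while 18.8% of all genes were higher and 14.9% lower.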

How the data were processed

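Poly-A RNA of whole seedlings was sequenced. The authors called bases with CASAVA 1.8, mapped with Bowtie2, whose version is not given in the sources used here, to TAIR10 and deposited RPKM per gene, computed with RackJ; no read counts were used here. The paper names biological repeats for Col and hda6-6 only, so for hda5-1 and hda9-1 the spread behind the p-values may be technical. Members and lists were chosen with earlier results of these data known.

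A value of 0.1 was added to each RPKM before taking log2. A gene entered limma 3.58.1 (R 4.3.3, eBayes with an intensity trend) if at least 3 libraries exceeded RPKM 0.1, which 23187 did. Genotype was the single term, leaving 8 residual degrees of freedom beside 3.83 from the prior, and each comparison had its own Benjamini-Hochberg adjustment, with a call at 0.05. The design named a count test had the files held counts; they hold RPKM, so limma was used. The lone fve-4 and fld-6 libraries were assumed to vary like the other groups. An exact 2-sided permutation test of 3 against 3 libraries cannot go below p = 0.1, and none was used. Changes of low genes are understated on this scale.

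Depths are estimates, the value met most often when low RPKM values are read as single reads over the annotated exon length; with them, 23.0 to 33.5% of values under 10 reads came out whole within 0.02 reads, so depth and read numbers are approximate. No libraries held identical values. Reads of paralogs and antisense genes could not be told apart. Exons, positions and promoters came from RefSeq TAIR10.1, matched by gene ID (32835 of 33602 found). Named genes were the 10 members, fixed relatives, and up to 3 called genes per list and comparison with the largest change at a mean RPKM of at least 1. Alternatives were other pseudocounts, filters, scalings, variance settings and references, the replicate block, leaving out each library and, added after seeing the data, removal of the length trend of each library (spline, 4 degrees of freedom). Simulated data served as a test: of 100 planted 2-fold changes among 23187 genes, 69, 77 and 79 were found in the hda6-6, hda5-1 and hda9-1 comparisons and 47 and 54 in those of fve-4 and fld-6; of 100 planted 4-fold changes, 97, 95 and 97 and then 88 and 91 were found. The planted genes were drawn only from those above a set level in Col, which NRPD1, NRPE1, KYP and RDR2 did not reach. The rates therefore do not cover these members, and the simulated spread held no length trend. Other steps used Python 3.11.15 with matplotlib 3.10.9, pandas 2.3.3 and numpy 2.4.6.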

Additional observations from a re-analysis of the deposited data

How the results depend on the processing

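Of 1374 values of the 10 members under alternatives, 1341 stayed on the same side of the threshold, 25 lost a call and 8 gained one. None of the called values changed sign, but values that were not called could, such as NRPE1 in hda9-1, which ranged from -0.31 to 0.27. Requiring 2-fold as well left 0 members in hda6-6, in fve-4 and in hda6-6 against the mean of hda5-1 and hda9-1. With that mean as the reference in place of Col, 1 member was called in hda6-6 and 1 in fve-4, ROS1 in both. With the length trend removed, hda5-1 had 1 member called, hda9-1 2 and hda6-6 against the mean of hda5-1 and hda9-1 2, the added one being NRPE1 (0.44, adjusted p = 0.0322). The same setting called 29.4%, 27% and 21.2% of all genes in these 3 comparisons. With the replicate number as a block, 2 members were called in hda5-1, against 28.6% of all genes. They were DRM2 (0.36, adjusted p = 0.0395 from limma) and AGO4 (-0.43, adjusted p = 0.0174). In fve-4 1 was called, against 19.5% of all genes, and ROS1 had -0.75 (adjusted p = 0.0783). Of 18 same-number correlations, 6 were over 0.1 (-0.07 to 0.17), 5 of them among the 6 pairs of replicates 1. The labels give only a number, and whether the replicates 1 share more than that was not tested. Leaving out each library gave 2 to 3 members in hda6-6, 0 to 1 in hda5-1 (DRM2, 0.49, adjusted p = 0.0342, without hda5-1 replicate 2), 0 in hda9-1 and fld-6, 1 to 3 in fve-4 (1 without Col replicate 2 or 3) and 0 to 1 in hda6-6 against the mean of hda5-1 and hda9-1 (0 without hda6-6 replicate 3). Without the filter, ROS1 in fve-4 had an adjusted p of 0.0537. Over all genes, hda6-6 against the mean of hda5-1 and hda9-1 gave 4269 calls, and 2693, 2301 and 2502 without hda6-6 replicate 1, 2 and 3; fld-6 gave 716, and 432 without Col replicate 3. Leaving out each library, the share of all genes called was 25.7 to 36.8% in hda6-6, 20.1 to 28.9% in hda5-1 and 17.4 to 25.8% in hda9-1. For hda6-6 against the mean of hda5-1 and hda9-1, the share was 10.1 to 21.4%. The cause of these differences was not tested.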

Other observations

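Among 3 genes known to be silenced by DNA methylation, 2 were tested and both rose in hda6-6. SDC (AT2G17690), an F-box gene with methylated promoter repeats, was at RPKM 0.794 ± 0.212 in Col and 6.02 ± 1.27 in hda6-6 (SD, n = 3), a log2 fold change of 2.79 (adjusted p = 1.00e-05 from limma). In the other direction it was at 0.0798 ± 0.0467 in hda5-1, 0.108 ± 0.0288 in hda9-1 (SD, n = 3) and 0.0916 in fve-4, with log2 fold changes of -2.32, -2.09 and -2.19. Levels near 0.1 rest on few reads. QQS (AT3G30720), a starch regulator known for methylated repeats upstream, was at 0.922 ± 0.373 in Col and 11.2 ± 1.22 in hda6-6 (SD, n = 3), a change of 3.52 (adjusted p = 0.000516), and was not called in another mutant. FWA, the third, was below the filter.

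Of 12 post-transcriptional silencing genes, 1 rose and 3 fell in hda6-6 (33.3% called, against 33.7% of all genes), 2 fell in hda5-1, 1 rose in hda9-1 and 1 fell in fve-4. The share called was 16.7% in hda5-1, 8.33% in hda9-1 and 8.33% in fve-4, against 26.2, 24.8 and 22.2% of all genes. AGO5 (AT2G27880), an Argonaute gene named after its values were seen, had the largest change on this scale, from RPKM 0.0533 ± 0.0589 in Col to 0.513 ± 0.0745 in hda6-6 (SD, n = 3), a log2 fold change of 2.06 (adjusted p = 0.000226 from limma). Its Col level is below the added 0.1 and rests on few reads, and the change ranged from 0.52 to 3.67 over the alternatives. RDR6 (AT3G49500), the RNA polymerase of trans-acting small RNAs, fell from RPKM 6.58 ± 0.616 in Col to 2.64 ± 0.185 in hda6-6 (SD, n = 3), a log2 fold change of -1.28 (adjusted p = 9.35e-06), and was lower than the mean of hda5-1 and hda9-1 by -1.05 (adjusted p = 3.61e-05). AGO7 (AT1G69440), an Argonaute of the same pathway, fell in hda6-6 (-1.57), hda5-1 (-1.35) and fve-4 (-1.15), the last call lost with the replicate block and without Col replicate 2 or Col replicate 3. MTO3 (MAT4, AT3G17390), a synthase of the methyl donor S-adenosylmethionine, rose from 191 ± 35.4 in Col to 557 ± 12.7 in hda6-6 and 649 ± 84.7 in hda5-1 (SD, n = 3), with log2 fold changes of 1.56 and 1.77, by 0.79 in hda9-1 and by 0.74 in fve-4, the last call lost under both scalings. TSO2 (AT3G27060), a ribonucleotide reductase subunit, fell in hda6-6 (-1.06), hda5-1 (-0.85) and hda9-1 (-0.67), while the cell cycle kinase gene CDKB2;1 (AT1G76540) rose in hda5-1 by 1.12.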
